A study of Mus musculus with 6 samples.

Results

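MAP kinase cascades carry signals from growth factor receptors and from cell stress to the nucleus through kinases acting in series: a MAP4K or a Ras protein activates a MAP3K, which phosphorylates a MAP2K, which phosphorylates a MAP kinase (an ERK, a JNK or a p38). Dual-specificity phosphatases (DUSPs) remove the activating phosphates from the threonine and the tyrosine of the MAP kinase, and several of them are themselves transcribed in response to the pathway, as are the Sprouty and Spred inhibitors that act near Ras and Raf. In fibroblasts these cascades are known for transmitting serum and growth factor signals to division and movement. The genes described here are those whose symbol, on a probe annotated with a single gene, starts with Mapk, Map2k, Map3k, Map4k, or with Dusp, Spry or Spred and a digit. This rule took 74 probes of 46 genes, out of 7605 genes that had a name and were tested, and each gene was read from its brightest probe.

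The cells were fibroblasts cultured from mouse embryos (E13.5), on a C57BL/6 background, with 3 Illumina arrays from wild-type cells and 3 from cells in which cyclophilin D (CypD), the mitochondrial isomerase encoded by Ppif, was knocked out. Both groups grew in medium with serum, and no other treatment is labelled. The labels do not describe the knockout allele, nor do they say whether the letters A, B and C mark different embryos or repeats of 1 culture, so p-values reflect array-to-array spread only, and that spread may be technical. Per the title, the study concerns cyclophilin D signalling outside mitochondria in cell cycle and chemokine-directed movement.

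Levels are log2 intensities after background correction and normalization, differences are knockout minus wild type, and a gene was called changed at a limma adjusted p (Benjamini-Hochberg over all probes tested) under 0.05. Arrays had median raw intensities of 223 to 251 and correlated at 0.993 to 0.994 within wild type, 0.994 to 0.995 within knockout and 0.985 to 0.986 between genotypes. Ppif read 13.57, 13.70 and 13.62 in wild type and 12.25, 12.35 and 12.18 in knockout, a log2 fold change of -1.37 ± 0.07 (SE; adjusted p = 2.96e-09). Its signal in knockout was still at the 93.6th percentile of all probes. Whether its probe reads the removed exons is unknown here, so it checks the labels only in part. Of 11 fibroblast markers 8 had a tested and named probe, 3 rose and 4 fell, and their summed linear signal was 27900 to 28900 in wild type and 19500 to 20600 in knockout. The 3 that rose were Pdgfra (by 1.47), Col3a1 (by 1.13) and Pdgfrb (by 0.41). The collagen genes Col1a1 (13.99 in wild type and 13.36 in knockout) and Col1a2 fell but were bright in both genotypes. S100a4 fell by 1.62, and the probes of Vim (7.84 and 7.60) and Dcn (7.61 and 6.97) were dim. Markers of other cell types also moved: the summed linear signal of 3 neural and glial markers was 5580 to 6250 in wild type and 1760 to 1870 in knockout, and that of 3 epithelial markers 1370 to 1420 and 1820 to 1940. Of the epithelial markers Spint1 rose by 0.78, Krt19 fell by 0.35 and Cdh1 did not pass (-0.09). The 2 leukocyte markers summed to 864 to 1070 and 879 to 902, and the 2 skeletal muscle markers to 577 to 705 and 584 to 635. Of the muscle markers Acta1 fell by 0.79 (adjusted p = 0.00028), and the brighter Myl4 did not pass (0.16). The single endothelial and erythroid markers tested, Eng and Ank1, rose by 0.52 each. The part of other cell types in the differences below was not tested, and in bulk RNA fewer cells of a type cannot be told apart from less RNA per cell.

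Knockout cells carried more RNA for most of the MAP kinase phosphatases measured, while Dusp1 and Dusp8 fell. Among 24 kinases 7 rose, 3 fell and 14 did not pass. Of the 46 genes, 19 rose, 7 fell and 20 did not pass. Called genes made up 56.5% of the set, against 43.6% of all 7605 named genes and 20.0% of all 27168 probes tested. Among named genes 21.8% were called higher and 21.8% lower. Names were given only to probes that the authors' processed table lists, and in that table each listed probe's highest value over the 6 arrays was at least 1.2 times its lowest, a selection for variation that can raise the share called in the set and in all named genes alike. The median log2 fold change was 0.25 in the set and 0.01 over all named genes. Changes were small: 6 genes were called with at least 1.5-fold, or 13.0%, near the 14.1% of all named genes, and all 6 of these rose. Among all named genes 531 were called higher and 541 lower with at least 1.5-fold. The 6 of the set were Dusp4, Mapkapk3, Dusp23, Dusp5, Dusp22 and Mapk8ip1, while Mapk11 and Dusp1, at 0.58 and -0.58, lay just outside.

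**Figure D1:**
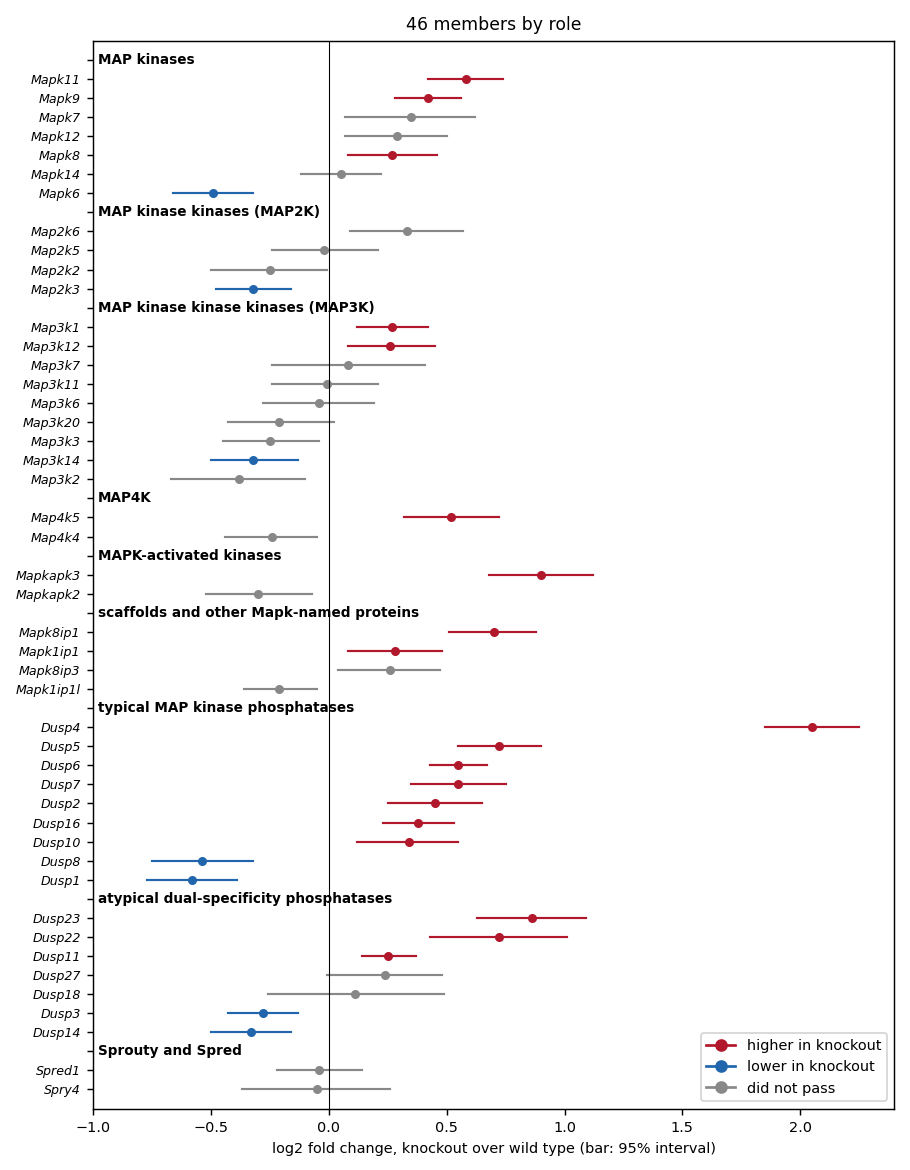
Log2 fold change (knockout over wild type) of the 46 genes by role, with points for the limma estimate and bars for its 95% interval; red marks genes called higher, blue genes called lower and grey genes that did not pass. Dusp4, at 2.05, stands apart from the others, which lie between -0.58 and 0.90.

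The typical MAP kinase phosphatases, which bind MAP kinases through a docking domain, all changed where measured. Of 9, 7 rose and 2 fell, with a median log2 fold change of 0.45. The genotypes did not overlap in any of the 9, as in 56.1% of all named genes. Dusp4, a nuclear phosphatase induced by ERK signalling, rose most. It read 8.59, 8.73 and 8.86 in wild type and 10.78, 10.82 and 10.72 in knockout. All 3 knockout arrays lay above 10.7 and all 3 wild-type arrays below 8.9, a 4.14-fold rise (2.05 ± 0.09 SE, adjusted p = 1.30e-09). Its 2 dimmer probes also rose, by 1.52 and 0.58. Its lowest estimate under 16 other processing settings was 1.82.

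Dusp5, a nuclear phosphatase selective for ERK, read 10.78, 10.96 and 11.06 in wild type and 11.72, 11.67 and 11.59 in knockout. The genotypes did not overlap, and the rise was 1.65-fold (0.72 ± 0.08 SE, adjusted p = 2.09e-05). Dusp6, a cytoplasmic phosphatase selective for ERK, read 12.80, 12.78 and 12.78 in wild type and 13.39, 13.32 and 13.31 in knockout. The wild-type arrays were nearly identical, and every knockout array was higher, by 1.46-fold in the mean (0.55 ± 0.06 SE, adjusted p = 7.77e-06). The 2 other Dusp6 probes rose by 0.75 and 0.57. Dusp7, a close relative of Dusp6 that also acts on ERK in the cytoplasm, had 10.99, 10.77 and 11.02 in wild type and 11.64, 11.44 and 11.35 in knockout. Its groups were separate as well, with a 1.47-fold rise (0.55 ± 0.09 SE, adjusted p = 0.000668).

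The other typical phosphatases, several of which act mainly on JNK and p38, moved both ways. Dusp1, an immediate-early gene whose product acts in the nucleus on p38, JNK and ERK, read 13.73, 14.09 and 13.79 in wild type and 13.27, 13.19 and 13.41 in knockout. Wild-type array B was the highest, but each of the 3 wild-type arrays lay above each knockout array, and the fall was 0.58 ± 0.09 on the log2 scale (SE, adjusted p = 0.000239). Dusp8, which acts on JNK and p38, fell by 0.54 ± 0.10 (adjusted p = 0.00154), and its other probe fell by 0.32. Dusp16 and Dusp10, both known for acting on JNK and p38, rose by 0.38 ± 0.07 (adjusted p = 0.00135) and 0.34 ± 0.10 (adjusted p = 0.028). Another Dusp16 probe rose by 0.78, while the remaining one did not pass (0.22, adjusted p = 0.0524). The Dusp10 call was lost without knockout B, knockout C, wild type A or wild type B (adjusted p = 0.105, 0.128, 0.0638 and 0.105), and its other probe did not pass (0.22, adjusted p = 0.25). Dusp2, a nuclear phosphatase best known from lymphocytes, rose 1.37-fold from a dim wild-type signal (7.91 ± 0.065 to 8.36 ± 0.0416, SD, n = 3 each, limma adjusted p = 0.00327).

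**Figure D2:**
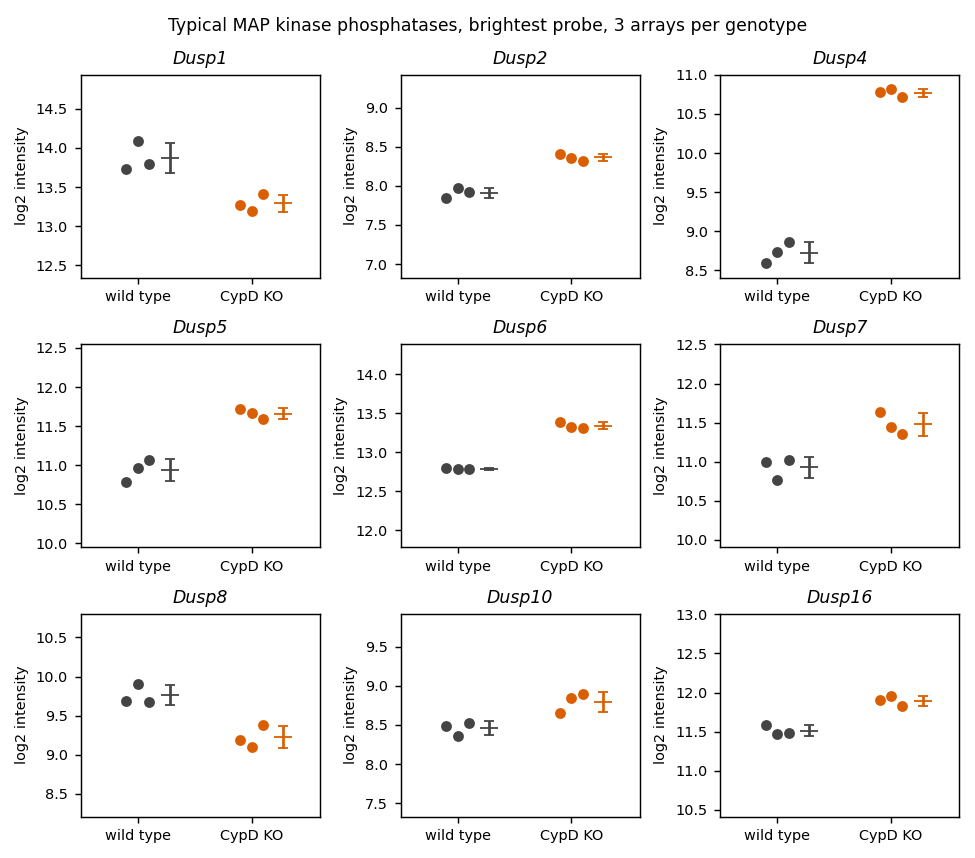
Log2 intensity of the 9 typical MAP kinase phosphatases on each array, 3 wild type (grey) and 3 CypD knockout (orange), with the mean and SD beside the points; every panel spans 2.6 log2 units. The genotypes do not overlap in any panel, Dusp1 and Dusp8 are lower in knockout, and the other 7 are higher.

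The promoters of Dusp5 and Dusp1 are shown for elements through which immediate-early genes are known to respond. Whether these elements bear on the direction of either gene was not tested. Windows from 250 bases before to 50 bases after the start were taken from RefSeq (mouse GRCm38.p6). They existed for 4 of the 6 genes called with at least 1.5-fold, as 5 windows, and not for Dusp4 or Mapk8ip1. Dusp1 was added after its values were seen, as the gene with the largest fall of the set. Dusp8, which also fell, was not searched. Both strands were searched for the cyclic AMP response element (CRE, TGACGTCA), for its first 5 letters (TGACG, which every full element contains) and for the CArG box bound by serum response factor. The Dusp5 window held 2 adjacent CArG boxes, from 82 to 63 bases before the start, and no full CRE. Of all 32851 windows 1.63% held a CArG box. The Dusp1 window held 1 full CRE, from 143 to 136 bases before the start, and no CArG box. A full CRE was found in 1.79% of all windows. The windows of Mapkapk3, Dusp22 and Dusp23, which also rose, held neither a CArG box nor a full CRE. The 5-letter form, present in 20.8% of all windows, was found in those of Dusp1, Dusp5 and Dusp23 and in 1 of the 2 of Mapkapk3. The 250 bases before each start are printed 5′ to 3′ on the gene's strand, with the CArG boxes (Dusp5, chr19:53528895-53529144, plus strand) and the CRE (Dusp1, chr17:26508473-26508722, minus strand) in capitals. A match is a description of the letters only, and binding was not measured.
Dusp5: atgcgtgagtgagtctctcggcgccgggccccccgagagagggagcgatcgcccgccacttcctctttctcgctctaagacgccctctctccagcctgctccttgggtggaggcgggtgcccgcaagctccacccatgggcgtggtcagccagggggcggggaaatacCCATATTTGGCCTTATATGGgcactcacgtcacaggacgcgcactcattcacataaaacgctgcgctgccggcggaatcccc
Dusp1: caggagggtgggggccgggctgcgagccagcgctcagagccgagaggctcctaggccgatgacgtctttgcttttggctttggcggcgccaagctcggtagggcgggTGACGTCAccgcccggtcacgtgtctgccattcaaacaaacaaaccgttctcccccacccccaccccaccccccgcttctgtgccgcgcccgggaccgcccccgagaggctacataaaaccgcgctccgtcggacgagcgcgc

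The atypical dual-specificity phosphatases, most of them small enzymes without the docking domain, also changed in both directions. Of 7, 3 rose, 2 fell and 2 did not pass. Dusp23 read 8.25, 8.11 and 8.49 in wild type and 9.11, 9.18 and 9.14 in knockout. The genotypes were separate, with a 1.82-fold rise (0.86 ± 0.11 SE, adjusted p = 3.82e-05), and its other probe rose by 0.81. Dusp22, known for a part in JNK and T cell receptor signalling, read 6.83, 6.82 and 7.22 in wild type and 7.61, 7.54 and 7.88 in knockout. That rise of 1.65-fold (0.72 ± 0.13 SE, adjusted p = 0.00151) starts from the 43.2nd percentile of all probes, where background is not separated from expression. Its size moved with the background handling, to 0.45 without background correction and in the processed table and to 0.92 with an offset of 16, so its place among the genes past 1.5-fold depends on that choice, while it was called in each. Dusp11, which acts on RNA rather than on MAP kinases, rose by 0.25 ± 0.05 to a bright level of 13.76 (adjusted p = 0.00374). Dusp14 fell by 0.33 ± 0.08 (adjusted p = 0.00766). Dusp3, which can dephosphorylate ERK and JNK, fell by 0.28 ± 0.07 (adjusted p = 0.0125), a call lost without knockout A (adjusted p = 0.0618). Of the 3 dimmer Dusp3 probes 1 fell (-0.54) and 2 did not pass (-0.23 and -0.32). Dusp18 and Dusp27 were dim and did not pass (0.11 ± 0.18 and 0.24 ± 0.11). Over both classes, 10 of 16 DUSP genes rose, 4 fell and 2 did not pass.

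The Sprouty and Spred inhibitors did not pass, although Sprouties are known as feedback genes of the pathway. Spred1 read 11.71, 11.55 and 11.50 in wild type and 11.62, 11.61 and 11.41 in knockout. These values overlap, and the 95% interval of the difference ran from -0.22 to 0.14 (adjusted p = 0.804). Spry4 read 7.35, 7.62 and 7.86 in wild type and 7.55, 7.79 and 7.33 in knockout. It was dim, at the 64.8th and 63.9th percentiles, and its interval, from -0.37 to 0.26, leaves room for a change of the size seen in several phosphatases (adjusted p = 0.865).

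Among the MAP kinases, the JNK and p38 beta genes rose while the atypical kinase ERK3 fell. Of 7 kinases tested 3 rose, 1 fell and 3 did not pass, and none was called with 1.5-fold. Mapk9 (JNK2) read 12.26, 12.26 and 12.29 in wild type and 12.78, 12.60 and 12.69 in knockout. Its wild-type arrays varied little, and the rise was 1.34-fold (0.42 ± 0.07 SE, adjusted p = 0.000352). However, its 2 dimmer probes did not pass (0.21 and 0.14, adjusted p = 0.263 and 0.447). Mapk8 (JNK1) read 10.04, 10.02 and 9.97 in wild type and 10.24, 10.43 and 10.17 in knockout. The groups were separate but the difference was small (0.27 ± 0.09 SE, adjusted p = 0.0426). That call was lost with median scaling (adjusted p = 0.0546), with no filter on dim probes (0.0608 as adjusted p) and without an intensity trend (0.0699 as adjusted p). It was also lost without any single array other than knockout C (adjusted p from 0.0688 to 0.198), and its other probe pointed the opposite way without passing (-0.17, adjusted p = 0.35).

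Mapk11 (p38 beta) read 10.07, 10.12 and 10.08 in wild type and 10.68, 10.68 and 10.67 in knockout, the tightest knockout values of the set. It rose by 0.58 ± 0.07 (adjusted p = 5.09e-05). Mapk14 (p38 alpha), the p38 form found in most cells, read 12.43, 12.60 and 12.68 in wild type and 12.53, 12.62 and 12.72 in knockout. The genotypes overlap, and the 95% interval ran from -0.12 to 0.22 (adjusted p = 0.733). Mapk6 (ERK3), whose activation does not use the usual double phosphorylation, read 12.41, 12.55 and 12.62 in wild type and 11.96, 11.99 and 12.17 in knockout. The knockout arrays were all lower, by 0.49 ± 0.08 (SE, adjusted p = 0.00042), and its other probe fell by 0.53. Neither Mapk12 (p38 gamma, 0.29 ± 0.10) nor Mapk7 (ERK5, 0.35 ± 0.13) passed (adjusted p = 0.0666 and 0.0816). Both passed with array weights (adjusted p = 0.0282 and 0.0489). Mapk12 also passed without wild type C (adjusted p = 0.00843), and Mapk7 without knockout A (adjusted p = 0.0262) or with the replicate letter as a block (adjusted p = 0.042).

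Most of the kinases upstream of the MAP kinases did not pass, like most of all named genes, of which 43.6% were called. Map2k3, an activator of p38, fell by 0.32 ± 0.07 (13.70 ± 0.149 to 13.38 ± 0.0682, SD, n = 3 each, limma adjusted p = 0.00641). Map2k6, which acts on the same kinases, was dim and did not pass by its brightest probe (0.33 ± 0.11, adjusted p = 0.0534). It passed by its other probe (0.45, adjusted p = 0.0136), without the intensity trend (adjusted p = 0.0468) and with the replicate letter as a block (adjusted p = 0.0466). Map2k2, a MEK that phosphorylates ERK, read 8.51, 8.33 and 8.71 in wild type and 8.17, 8.23 and 8.39 in knockout. The groups overlap and the difference did not pass (-0.25 ± 0.11, adjusted p = 0.15). Map2k5, the activator of ERK5, stood at -0.02 ± 0.10 (adjusted p = 0.951). Of the 4 MAP2K genes 0 rose, 1 fell and 3 did not pass.

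Of 9 MAP3K genes 2 rose, 1 fell and 6 did not pass. Map3k1, which feeds JNK, rose by 0.27 ± 0.07 (adjusted p = 0.0118) and by 0.38 on its other probe. Its brightest-probe call was lost without knockout A or wild type A (adjusted p = 0.0562 and 0.0527). Map3k14, the NF-kB inducing kinase, fell by 0.32 ± 0.09 (adjusted p = 0.0172), a call lost when knockout A (adjusted p = 0.0752) or knockout C (adjusted p = 0.0719) was left out. Map3k12, a kinase of JNK signalling in neurons, was called at 0.26 ± 0.09 (adjusted p = 0.0429). That call was lost under 9 of 16 settings, with median scaling (adjusted p = 0.0638), with no filter (0.0612 as adjusted p), without the intensity trend (0.0736 as adjusted p), with the replicate block (0.0679 as adjusted p) and without any single array other than wild type C (adjusted p from 0.0698 to 0.175). Its other probe did not pass (0.16, adjusted p = 0.378). The other 6, Map3k2, Map3k3, Map3k6, Map3k7, Map3k11 and Map3k20, lay between -0.38 and 0.08. Of these, Map3k2 passed without wild type A (adjusted p = 0.0458) and Map3k3 without wild type B (adjusted p = 0.0447). Map4k5 rose 1.43-fold (0.52 ± 0.09 SE, adjusted p = 0.00115) but not by its dimmer probe (0.05, adjusted p = 0.885), and Map4k4 did not pass (-0.24 ± 0.09, adjusted p = 0.0803).

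Downstream of p38, Mapkapk3 passed and its close relative Mapkapk2 did not, and the difference between them was not tested. Mapkapk3 read 8.09, 7.93 and 8.06 in wild type and 8.81, 9.06 and 8.92 in knockout. The knockout arrays were all higher, by 1.87-fold (0.90 ± 0.10 SE, adjusted p = 1.55e-05). Its 2 dimmer probes gave 1.08, which passed, and 0.29, which did not (adjusted p = 0.0666). Mapkapk2 stood at -0.30 ± 0.10 without passing (adjusted p = 0.0602), with wild-type values of 11.33, 11.51 and 11.82 that spread more than the knockout values of 11.28, 11.27 and 11.22. It passed with median scaling (adjusted p = 0.0397), in the processed table (adjusted p = 0.0399) and without wild type A (adjusted p = 0.0126).

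Among scaffolds and proteins named for MAP kinases, Mapk8ip1 (JIP1), which assembles the JNK module, read 9.62, 9.51 and 9.50 in wild type and 10.15, 10.33 and 10.24 in knockout. The groups were well apart, with a 1.62-fold rise (0.70 ± 0.09 SE, adjusted p = 3.82e-05), and its other probe rose by 0.58. Mapk8ip3 (JIP3), a scaffold that links JNK to kinesin transport, had 0.26 ± 0.10 and did not pass (adjusted p = 0.1), though it passed without wild type C (adjusted p = 0.0353). Mapk1ip1 was called at 0.28 ± 0.09 (adjusted p = 0.0494), a call lost under 9 of 16 settings (without background correction, with no filter, in the processed table, with the replicate block and without any single array other than wild type C, adjusted p from 0.0501 to 0.178). Mapk1ip1l did not pass (-0.21 ± 0.07, adjusted p = 0.0581) but was called lower under 5 settings: array weights (adjusted p = 0.0361), a filter at the 70th percentile (0.0395 as adjusted p), median scaling (0.0174 as adjusted p), the processed table (0.0493 as adjusted p) and without wild type C (0.0282 as adjusted p).

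Several probes were tested for 19 of the 46 genes. In 7 of these every probe was called in 1 direction, in 9 some probes were called and others not, in 3 none was called, and in 0 did called probes disagree in direction. The 7 were Dusp4, Dusp6, Dusp8, Dusp23, Map3k1, Mapk6 and Mapk8ip1. Taking the least bright probe of each gene in place of the brightest left 13 genes higher and 6 lower.

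**Figure D3:**
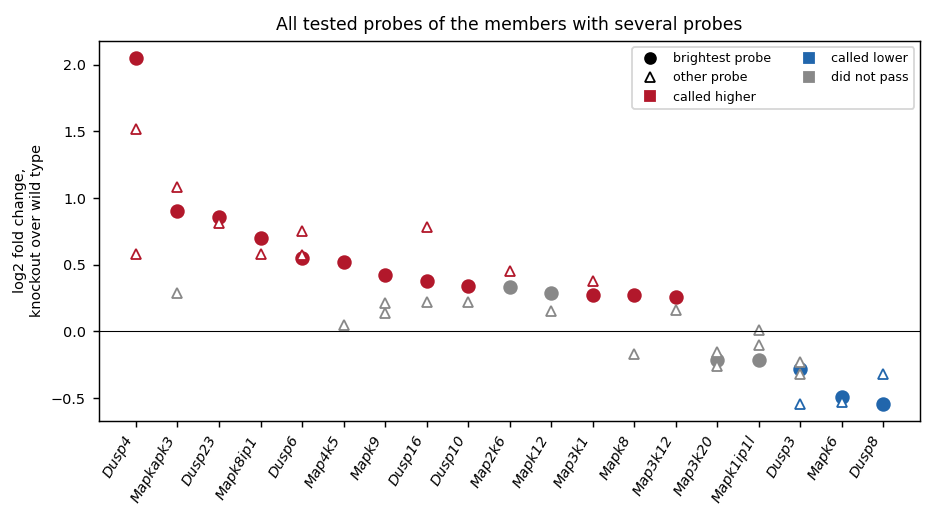
Log2 fold change (knockout over wild type) of every tested probe of the 19 genes with several probes; filled circles are the brightest probes and open triangles the others, coloured by call. All 3 Dusp4 probes and all 3 Dusp6 probes are called higher, while the dimmer Mapk8 probe lies below 0 at -0.17.

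Other genes of the pathway, or related to it, were taken from 6 lists of receptors, Ras proteins, downstream kinases, responsive genes, stress inputs and further phosphatases. Of 85 tested genes outside the rule, 22 rose, 28 fell and 35 did not pass, with a median of -0.02. Called genes made up 58.8% of them, against 43.6% of all named genes (21.8% higher and 21.8% lower). By list the share called was 36.8% for stress inputs, 37.5% for further phosphatases and 58.3% for receptors and adaptors. It was 68.8% for Ras and Raf regulators, 70.4% for responsive genes and 100% for the 3 downstream kinases. Among receptor tyrosine kinases and adaptors, 7 of 12 rose, 0 fell and 5 did not pass (median 0.24). Pdgfra, a receptor for platelet-derived growth factors, rose 2.76-fold (1.47 ± 0.11, adjusted p = 3.11e-07). Cblb, a ubiquitin ligase that acts on receptors, rose by 0.75 ± 0.08, Egfr by 0.48 ± 0.07 and Fgfr2 by 0.30 ± 0.06, although 2 of the 3 other Egfr probes did not pass (0.19 and 0.29). Ptpn11 and the adaptor Crkl did not pass (0.01 ± 0.08 and 0.10 ± 0.09).

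Regulators of Ras and Raf included the largest rise and the largest fall of the 6 lists: 5 of 16 rose, 6 fell and 5 did not pass. Il17rd (Sef), a feedback inhibitor of FGF and ERK signalling, read 8.63, 8.66 and 8.74 in wild type and 10.37, 10.55 and 10.39 in knockout. It rose 3.38-fold (1.76 ± 0.09 SE, adjusted p = 4.11e-09), and by 0.89 on its other probe. Rasgrp3, an activator of Ras, fell by 2.11 ± 0.10 (10.15 ± 0.0202 to 8.04 ± 0.158, SD, n = 3 each, limma adjusted p = 1.83e-09). Lrig1, an inhibitor of growth factor receptors, fell by 1.11 ± 0.07, and Rasa3, which switches Ras off, rose by 0.57 ± 0.06, with a second Rasa3 probe that did not pass (0.29, adjusted p = 0.0657). Nras and Lamtor1 did not pass (0.06 ± 0.08 and 0.17 ± 0.08).

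Immediate-early and ERK-responsive genes moved in both directions. Of 27 tested, 6 rose, 13 fell and 8 did not pass, with a median of -0.21. Egr3 read 10.19, 10.46 and 10.30 in wild type and 11.45, 11.44 and 11.34 in knockout, a 2.14-fold rise (1.10 ± 0.08 SE, adjusted p = 3.76e-07). Egr2, a zinc finger factor like Egr3, rose by 0.86 ± 0.10 and Etv1, an ETS factor, by 1.04 ± 0.12, the latter from the 45.5th percentile and with 0.69 without background correction. Arc, an immediate-early gene best known from neurons, fell by 0.66 ± 0.10 (adjusted p = 0.000166). Egr1, one of the most used readouts of ERK activity, was bright and did not pass (0.14 ± 0.06, adjusted p = 0.154), though it was called without wild type C (0.21, adjusted p = 0.0178). Klf6 did not pass either (-0.16 ± 0.07), and was called with median scaling (-0.24, adjusted p = 0.0359).

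Of 19 tested inputs and targets of the stress kinases, 3 rose, 4 fell and 12 did not pass. Stk25, a kinase of the Ste20 family, rose by 0.96 ± 0.09 and Tnik by 0.60 ± 0.10. Tnik was dim, at the 55.2nd and 67.7th percentiles, was not tested with a filter at the 70th, and stood at 0.39 without background correction. The p38 and JNK activator Gadd45b fell by 0.53 ± 0.09, though its other probe did not pass (-0.21), and Hspb1, a small heat shock protein phosphorylated downstream of p38, fell by 0.57 ± 0.08. Tab2 and Taok1 did not pass (0.19 ± 0.07 and 0.03 ± 0.10). The 3 tested kinases that MAP kinases activate outside the Mapkapk family all fell: Rps6ka5 by 0.65 ± 0.09, Rps6ka3 by 0.29 ± 0.08 and Mknk1 by 0.25 ± 0.08. The Mknk1 call (adjusted p = 0.0379) was lost under 8 of 16 settings (adjusted p from 0.0537 to 0.143). The Rps6ka3 call was lost without knockout C, wild type A or wild type B (adjusted p = 0.0707, 0.0554 and 0.0651). Of 8 further phosphatases 1 rose, 2 fell and 5 did not pass, and not all of them, Ssh3 included, are known for acting on MAP kinases. Ppm1l, which acts on stress kinases, fell by 0.78 ± 0.13, while 1 of its 2 other probes did not pass (-0.24). Ssh3 fell by 0.43 ± 0.12, a call lost without knockout A, knockout B or wild type C (adjusted p = 0.0933, 0.0627 and 0.0565). Ppm1b rose by 0.22 ± 0.06, but another probe lay at -0.06 and the call was lost under 5 settings (adjusted p from 0.0682 to 0.131). Ppm1a and Styx did not pass (0.14 ± 0.06 and -0.11 ± 0.11), although Styx was called lower without wild type C (adjusted p = 0.0172).

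**Figure D4:**
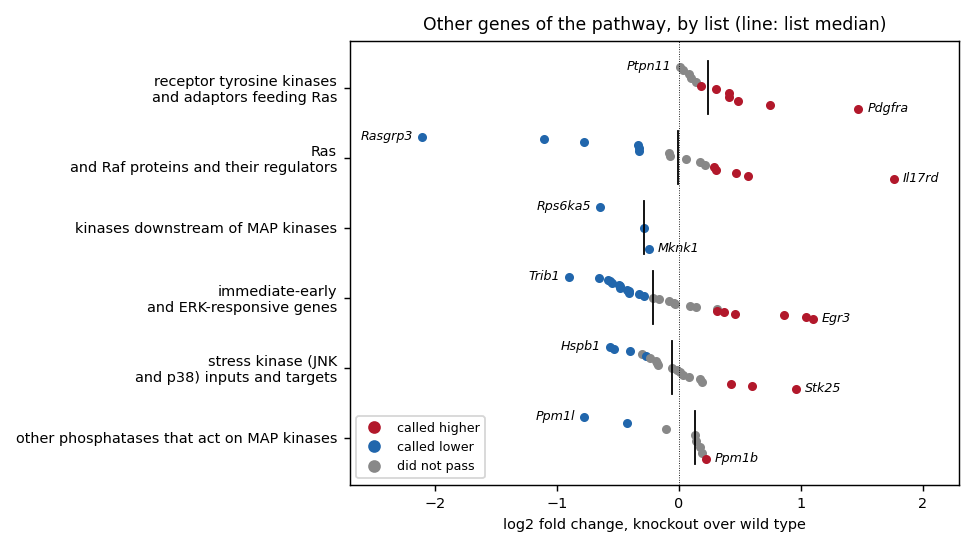
Log2 fold change (knockout over wild type) of tested genes in 6 lists of genes of the same pathway or related to it. Points are coloured by call, the lowest and highest gene of each list are named, and a line marks the list median. Values run from -2.11 (Rasgrp3) to 1.76 (Il17rd), and every point of the receptor list lies at or above 0.01.

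RefSeq lists 85 mouse protein-coding genes that fit the rule, and 39 of them had no named probe here. Map2k1, Spry1, Spry2 and Spred2 are among the 39. A gene without a named probe has no value in this account, so no direction can be given for it.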

How the data were processed

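The authors deposited linear probe intensities for each of 6 Illumina arrays and a processed intensity table for 12534 probes, and used BeadStudio 3.0, per the submitters' processing notes. Per the file headers there are no detection p-values or control probes. How the processed table was made is not stated in the sources used.

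Intensities were corrected with normexp (offset 50), log2-transformed and quantile-normalized in limma 3.58.1 (R 4.3.3). Probes above the 40th percentile of mean log2 intensity were kept (27168), and genotypes were compared with lmFit and eBayes with an intensity trend, two-sided, and with Benjamini-Hochberg adjustment over all probes kept. The procedure was also run on simulated data with independent noise and known changes, which checks its steps and not the calls made here. The offset compresses changes of dim probes, and the number of arrays limits precision. Probe names came from the platform annotation, with 10653 probes having 1 gene symbol, 5 several and 1876 none. Entrez identifiers matched 10643 of them to RefSeq.

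The genes, lists and settings were chosen with earlier results of these data known. Values on every array were given for genes called with at least 1.5-fold and for the main kinases, phosphatases and inhibitors, and, added after their values were seen, for Mapk6, Mapk11, Mapkapk2, Dusp7, Il17rd and Egr3. The closing section gives the alternatives. From each pathway list up to 4 called genes of lowest p and up to 2 of highest intensity that did not pass were named. Trib1 and Srf were added after their values were seen.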

Additional observations from a re-analysis of the deposited data

How the results depend on the processing

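Calls were recomputed under 16 settings: no background correction, offset 16, median scaling, cyclic loess, a filter at the 70th percentile, no filter, no intensity trend, array weights, the processed table, the replicate block, and each of the 6 arrays left out. Of the 26 called genes 19 kept their call under every setting in which they were tested, 7 lost it under at least 1, and 0 changed direction. Among the 19, Dusp22 was tested under 15 settings only, as its dim probe did not reach the filter at the 70th percentile. Of the 20 that did not pass, 8 were called under at least 1. Across settings 14 to 21 genes were called higher and 5 to 9 lower. Same-letter arrays deviated together at r = 0.101, -0.0899 and 0.0753, and arrays of different letters at r from -0.209 to 0.15. With so few arrays this cannot tell whether the letters pair the arrays, and what they mark remains unknown. With the replicate block 19 genes were higher and 7 lower, and 5273 probes were called in place of 5423.

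Some differences changed sign, and the cause was not tested. Apart from Mapk8, called at 0.27 by its brightest probe, none of them had passed. With array weights Map2k5 gave 0.02 and Ptpn11 -0.01. With median scaling Mapk14 gave -0.00064, Ptpn11 -0.03, Nras -0.01 and Taok1 -0.03. The dimmer Mapk8 probe gave -0.17. Leaving out single arrays gave ranges of -0.10 to 0.31 for Dusp18, -0.07 to 0.08 for Map2k5, -0.13 to 0.08 for Map3k11, -0.15 to 0.02 for Map3k6, -0.04 to 0.26 for Map3k7, -0.02 to 0.11 for Mapk14, -0.09 to 0.03 for Spred1 and -0.18 to 0.07 for Spry4. The same ranges were -0.05 to 0.09 for Ptpn11, -0.02 to 0.14 for Nras, -0.10 to 0.13 for Taok1 and -0.27 to 0.0019 for Styx.

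For 8 of the 46 genes the mean signal lay below the 70th percentile in both genotypes, where background is not separated from expression.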
